A study of Mus musculus with 12 samples.

Results

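The release of cytotoxic granules was examined through 10 genes that code for the machinery of degranulation in natural killer (NK) cells, lymphocytes that kill target cells and secrete cytokines. The genes were taken by symbol from the deposited expression table: Unc13d, Rab27a, Stx11, Stxbp2, Vamp7, Vamp8, Lyst, Nkg7, Lamp1 and Srgn. All 10 were found among the 55487 features of the table, and all 10 were among the 12364 genes that passed a filter on low values (log2 CPM above 0 in at least 4 samples, where CPM is the read count scaled to the library total). RNA was sequenced from 12 samples of mouse NK cells in 3 groups of 4. Every sample came from strain B6.129S4-Ifngtm3.1Lky/J with genotype mut/mut, so the unstimulated cells carried the yellow fluorescent protein (YFP) reporter allele of the interferon gamma gene too. All cells had been primed with IL-15 (marked "HD" in the titles). One group was left unstimulated. The other cells received anti-NK1.1, an antibody against an activating receptor of NK cells, for 6 hours and were divided by the reporter into YFP- and YFP+ samples. Each group holds the samples f2, m2, m3 and m4, and nothing in the labels states whether these mark separate mice or the same mouse across groups, so the p-values below measure only the spread between these samples. The age of the mice was not given in the sources used here.

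Cytotoxic lymphocytes store perforin and granzymes in secretory lysosomes. On contact with a target the granules move to the immune synapse, are tethered and primed at the plasma membrane, and fuse with it through SNARE proteins, which are membrane-anchored proteins that zip together across the gap. Loss of several of these genes in people causes inherited disorders in which killing fails although the granules may be present, among them familial hemophagocytic lymphohistiocytosis (UNC13D, STX11, STXBP2), Griscelli syndrome (RAB27A) and Chediak-Higashi syndrome (LYST).

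All 10 are protein-coding genes, given here with their positions on GRCm38 (GENCODE M21). For granule matrix and membrane, Srgn spans chr10:62493833-62527451 (minus strand), Nkg7 chr7:43437073-43438249 (plus) and Lamp1 chr8:13159161-13175338 (plus). For fusion, Stx11 spans chr10:12938209-12964298 (minus), Stxbp2 chr8:3630955-3643644 (plus) and Vamp8 chr6:72385223-72390703 (minus), while Vamp7 lies on a separate scaffold outside the assembled chromosomes. For tethering and biogenesis, Unc13d spans chr11:116062095-116077961 (minus), Rab27a chr9:73044854-73097629 (plus) and Lyst chr13:13590397-13778803 (plus). Lamp1 shares 249 exon bases (9.31% of its exon length) with Grtp1 on the opposite strand, which had a mean of 1.22 CPM, and the library kit does not mark strand.

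RefSeq promoters (GRCm38.p6, 250 bases before to 50 after the start site) matched 8 of the 10 genes with 10 promoters. There was no entry for Unc13d or Vamp7. Shown are the promoters of the pair of genes that rose most against unstimulated samples (Srgn, Stx11) and of the gene that fell most (Lyst). Those of Nkg7, which was higher in YFP+ than in YFP- samples, and of Lamp1, for its repeated motif, are shown too. Each is written 5′ to 3′ on the strand of the gene. Capitals mark matches, on either strand, to T-box (AGGTGTG), RUNX (TGTGGT), ETS (CGGAAG), AP-1 (TGANTCA), E-box (CACGTG) or NFAT (TGGAAA) letters. The first Srgn promoter lies at chr10:62527396-62527695 (minus), that of Stx11 at chr10:12964210-12964509 (minus), that of Lyst at chr13:13590159-13590458 (plus), that of Nkg7 at chr7:43436888-43437187 (plus) and that of Lamp1 at chr8:13158911-13159210 (plus).
Srgn: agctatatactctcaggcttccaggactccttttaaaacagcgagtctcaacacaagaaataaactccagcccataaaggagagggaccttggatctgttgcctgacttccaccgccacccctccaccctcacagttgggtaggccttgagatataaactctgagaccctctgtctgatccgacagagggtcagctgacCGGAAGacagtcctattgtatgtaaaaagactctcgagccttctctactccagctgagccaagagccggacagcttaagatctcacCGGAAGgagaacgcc
Stx11: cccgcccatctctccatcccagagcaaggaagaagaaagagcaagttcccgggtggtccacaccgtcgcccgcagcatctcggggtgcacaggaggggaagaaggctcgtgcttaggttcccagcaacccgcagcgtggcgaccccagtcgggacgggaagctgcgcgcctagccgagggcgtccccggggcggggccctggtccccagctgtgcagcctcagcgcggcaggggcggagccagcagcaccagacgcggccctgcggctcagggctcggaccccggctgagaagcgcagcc
Lyst: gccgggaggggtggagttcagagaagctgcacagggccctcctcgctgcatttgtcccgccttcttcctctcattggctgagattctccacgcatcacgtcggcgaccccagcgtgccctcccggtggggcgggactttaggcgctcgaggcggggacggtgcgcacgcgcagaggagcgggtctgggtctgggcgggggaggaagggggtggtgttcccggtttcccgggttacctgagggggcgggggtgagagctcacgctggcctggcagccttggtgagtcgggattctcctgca
Nkg7: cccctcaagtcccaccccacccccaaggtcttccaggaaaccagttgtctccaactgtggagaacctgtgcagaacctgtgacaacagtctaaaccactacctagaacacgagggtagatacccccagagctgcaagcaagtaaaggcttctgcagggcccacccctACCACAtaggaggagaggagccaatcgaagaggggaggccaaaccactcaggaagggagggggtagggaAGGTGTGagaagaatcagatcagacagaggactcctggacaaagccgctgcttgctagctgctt
Lamp1: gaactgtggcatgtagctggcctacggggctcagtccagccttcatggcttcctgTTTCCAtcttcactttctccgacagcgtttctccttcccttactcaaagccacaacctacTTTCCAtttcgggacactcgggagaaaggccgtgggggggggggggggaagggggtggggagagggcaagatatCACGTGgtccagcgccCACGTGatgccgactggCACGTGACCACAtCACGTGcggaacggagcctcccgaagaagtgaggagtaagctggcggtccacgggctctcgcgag
The Lamp1 promoter held 4 E-box matches, beginning 61, 45, 28 and 15 bases before the start site, with a RUNX match directly between the last 2 of them and 2 NFAT matches further upstream. Of 32851 promoters in the table, 8 held at least 4 E-box matches. The Nkg7 promoter held a T-box match 14 bases and a RUNX match 83 bases before the start site, and the Srgn promoter shown held 2 ETS matches. None of the 6 motifs was found in the windows of Stx11, Lyst or Vamp8. Over the 10 promoters of these genes, T-box letters occurred in 2 (5.84% of all promoters in the table), RUNX in 4 (16.8%), ETS in 2 (16.9%), E-box in 3 (7.15%), NFAT in 3 (21.4%) and AP-1 in 0 (7.81%). No 2 of the different motifs overlapped in these promoters. A match is a run of letters and not a measured binding site.

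Library totals ran from 32.1 to 54.2 M reads (M for mega), so that 3 reads, the smallest level taken as detectable, were 0.0553 to 0.0933 CPM. The lowest count of any member in any sample was 52 reads, for Lyst in a YFP+ sample. Features resembling ribosomal RNA took 27.4 to 35.3% of the reads of unstimulated samples, 15.9 to 30.3% for YFP- and 13.7 to 29.8% for YFP+ samples. All 10 NK cell markers were present in every group, with a summed level of 3330 to 3551 CPM without stimulation, 2753 to 3810 CPM for YFP- and 1653 to 2933 CPM for YFP+ samples. Within that list Klrb1c averaged 308, 75.3 and 6.50 CPM in unstimulated, YFP- and YFP+ samples. Eomes averaged 108, 70.5 and 40.7 CPM and Tbx21 33.2, 80.9 and 85.7 CPM. Like Klrb1c and Eomes, Tyrobp, Klrd1, Ncr1, Cd244a and Itga2 had lower means in both stimulated groups. Klrk1 had higher means in both, and Il2rb in YFP- samples only. Of 10 T cell markers, 5 had a mean of at least 1 CPM in each group, and the sum of the list was 263 to 345 CPM without stimulation, 346 to 416 CPM for YFP- and 429 to 490 CPM for YFP+ samples. Trbc2 averaged 156, 252 and 291 CPM in unstimulated, YFP- and YFP+ samples and Trac 7.43, 34.3 and 48.4 CPM, while Cd3g averaged 47.9, 32.5 and 20.6 CPM and Cd3d 17.8, 15.7 and 10.4 CPM. Cd3e, Cd4, Cd8a and Cd8b1 had group means of at most 0.915 CPM. Of 7 B cell markers Ighm averaged 150, 235 and 108 CPM, and the others had group means of at most 2.21 CPM. Mast cells also store serglycin, and of 7 mast cell and basophil markers Ms4a2 and Tpsb2 had at most 3 reads in each library, while Mcpt8 averaged 15.3 to 22.3 CPM. Cma1 averaged 10.1, 5.82 and 5.83 CPM in unstimulated, YFP- and YFP+ samples and Cpa3 1.99, 1.43 and 0.449 CPM. Gata2 and Fcer1a had group means of at most 0.0921 CPM. The part of other cells in the results below was not tested. In such bulk samples fewer cells of a type and less RNA per cell cannot be told apart.

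**Figure D1:**
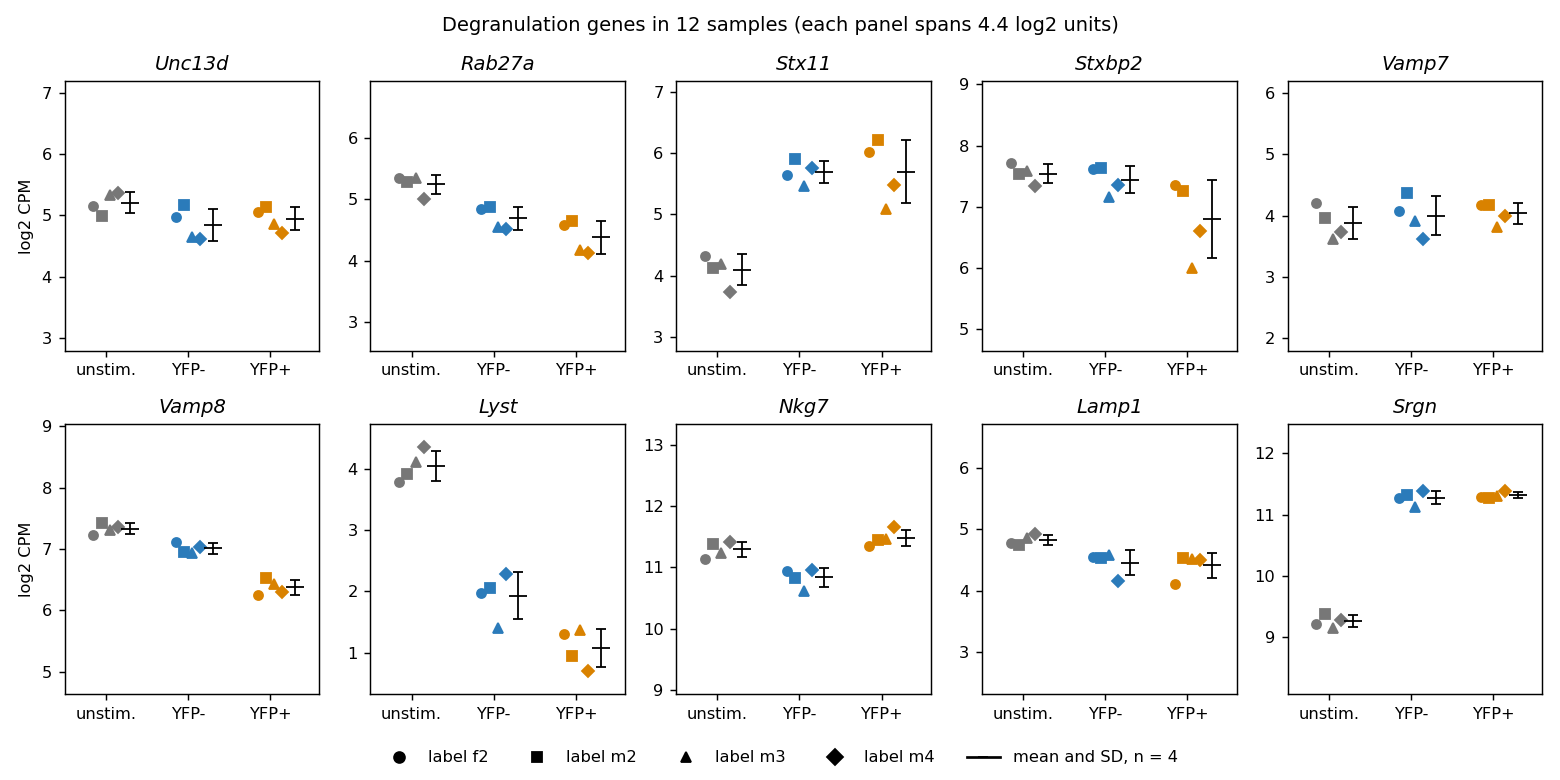
Deposited log2 CPM (vertical axis) of the 10 degranulation genes in each of 12 samples, by group on the horizontal axis, with 1 symbol per sample label; black marks show the mean and SD of 4 samples. Srgn and Stx11 stood higher and Lyst lower in every stimulated sample than in every unstimulated sample, and Vamp8 formed 3 separate steps.

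The first question was how the stimulated groups differed from unstimulated cells. Each stimulated group is a fraction divided by the reporter, and no time is given for the unstimulated cells. Stimulation, division by the reporter and time in culture cannot be told apart in these comparisons. Against unstimulated cells, 2 of the 10 genes rose and 5 fell in YFP- samples, at a Benjamini-Hochberg adjusted p under 0.05 in limma over all 12364 genes. Of all genes tested, 30.2% were called higher and 20.9% lower in that comparison. In YFP+ samples 2 rose and 5 fell as well, against a background of 27.5% higher and 33.3% lower. The median log2 fold change of the 10 genes was -0.34 in both comparisons, where that of all genes was 0.14 for YFP- and -0.03 for YFP+ samples. The values of all genes depended on the scaling. On the deposited scale 3735 were called higher and 2586 lower in YFP- samples, and 3400 and 4122 in YFP+ samples. With ribosomal-RNA-like reads left out of the totals these were 3072 and 3444 (median -0.05), and 2856 and 4906 (median -0.21). After quantile normalization they were 3315 and 3410 (median -0.007), and 4060 and 3792 (median 0.07). The YFP- and YFP+ comparisons share the same 4 unstimulated samples. The groups did not overlap for 7 of the 10 genes in YFP- samples (52.7% of all genes) and for 6 in YFP+ samples (54.7% of all genes). With 10 genes, nothing particular to the set is read from these counts.

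The granule matrix gene rose. Srgn codes for serglycin, the proteoglycan whose sulfated sugar chains hold granzymes and perforin in the granule core. In unstimulated samples it was at 598, 667, 572 and 624 CPM (labels f2, m2, m3 and m4, the order used throughout). In YFP- samples it was at 2478, 2560, 2246 and 2685 CPM. In YFP+ samples it was at 2516, 2482, 2541 and 2694 CPM. Every stimulated sample lay above every unstimulated sample, and the YFP- and YFP+ ranges overlapped. The log2 fold change against unstimulated cells was 2.02 (SE 0.09; limma adjusted p = 3.1e-09) in YFP- samples, a 4.05-fold rise, and 2.06 (SE 0.09; limma adjusted p = 1.2e-09) in YFP+ samples. Between YFP+ and YFP- samples the log2 difference was 0.04, with a 95% interval of -0.15 to 0.23 (limma adjusted p = 0.78).

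Among the fusion genes, Stx11 rose. Syntaxin 11 is an atypical SNARE without a membrane-spanning segment that acts at the plasma membrane of cytotoxic cells. It stood at 20.1, 17.5, 18.3 and 13.3 CPM in unstimulated samples. YFP- samples held 50.2, 59.7, 44.2 and 54.3 CPM. YFP+ samples held 64.5, 74.5, 33.9 and 44.5 CPM. All stimulated samples lay above all unstimulated ones, and the YFP+ samples spread on both sides of the YFP- range. The log2 fold change was 1.60 in each comparison with unstimulated cells (SE 0.22; limma adjusted p = 6.1e-05 for YFP- and 3.0e-05 for YFP+), a 3.03-fold rise. The difference between YFP+ and YFP- samples had a 95% interval of -0.48 to 0.48 in log2.

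The partner that binds syntaxin 11, Munc18-2, is coded by Stxbp2. It stood at 209, 185, 192 and 162 CPM in unstimulated samples. YFP- samples held 195, 199, 143 and 165 CPM. YFP+ samples held 164, 153, 63.8 and 97.2 CPM. The YFP+ samples labelled m3 and m4 were the lowest of all 12, whereas f2 and m2 lay within the range of the YFP- samples. Of the YFP+ samples, m3 and m4 were also the lower pair for Stx11, Rab27a, Unc13d and Vamp7. They were not for Vamp8, Lyst, Nkg7, Lamp1 or Srgn. Over all genes kept, the second main axis of variation (principal component 2) also set them apart, at 68.1 and 45.8 against -10.8 and -1.09 for f2 and m2. The m3 and m4 libraries held 29.8 and 23.1% ribosomal-RNA-like reads, against 13.7 and 16.3% for f2 and m2. With such reads left out of the totals the YFP+ samples were at 190, 183, 90.8 and 126 CPM, so m3 and m4 stayed lowest. On that scale all 4 YFP+ samples lay below the YFP- samples (205 to 240 CPM) and the unstimulated samples (250 to 302 CPM). The fall in YFP+ samples against unstimulated cells was -0.74 in log2 (SE 0.25; limma adjusted p = 0.018), although the groups overlapped on the deposited scale. Without the YFP+ sample m3 it was -0.47, and with no filter on low values it was not called (adjusted p = 0.13). In YFP- samples the value was -0.10 (limma adjusted p = 0.76).

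The vesicle SNAREs parted. Vamp8, a SNARE of late endosomes and secretory granules, stood at 149, 172, 158 and 165 CPM in unstimulated samples. YFP- samples held 139, 123, 123 and 132 CPM. YFP+ samples held 75.6, 91.8, 86.4 and 79.1 CPM. The 3 groups did not overlap anywhere, with unstimulated samples highest and YFP+ samples lowest. Against unstimulated cells Vamp8 fell by 0.32 on the log2 scale in YFP- samples (SE 0.10; limma adjusted p = 0.019) and by 0.96 in YFP+ samples (SE 0.10; limma adjusted p = 3.0e-06). The YFP- call was lost without the unstimulated sample m2 (-0.29, adjusted p = 0.06), and the value was -0.57 after quantile normalization. Vamp7, a SNARE of lysosome secretion, was at 12.2 to 18.3 CPM without stimulation, at 12.2 to 20.8 CPM for YFP- and at 14.0 to 18.0 CPM for YFP+ samples, and all 3 ranges overlapped. Its log2 fold changes were 0.12 (95% interval -0.27 to 0.50) and 0.16 (-0.23 to 0.55), and neither was called.

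The biogenesis gene showed the largest fall of the 10. Lyst codes for a very large BEACH-domain protein that controls the size of lysosome-related organelles. It was at 13.8, 15.0, 17.3 and 20.4 CPM in unstimulated samples. YFP- samples held 3.93, 4.15, 2.63 and 4.87 CPM. YFP+ samples held 2.45, 1.92, 2.57 and 1.62 CPM, or 52 to 120 reads. No group overlapped another, although the lowest YFP- sample (m3) and the highest YFP+ sample (also m3) were close. Lyst fell by 2.11 on the log2 scale in YFP- samples (SE 0.22; limma adjusted p = 5.5e-06), a 4.32-fold fall, and by 2.96 in YFP+ samples (SE 0.22; limma adjusted p = 9.5e-08), a 7.79-fold fall. Of all genes, 1.48% had a lower fold change than Lyst in the YFP- comparison and 2.85% in the YFP+ comparison.

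The tethering and priming genes changed less. Rab27a, the small GTPase that docks granules at the membrane, stood at 40.5, 39.0, 40.5 and 32.0 CPM in unstimulated samples. YFP- samples held 28.5, 29.3, 23.3 and 22.7 CPM. YFP+ samples held 24.0, 25.0, 18.1 and 17.4 CPM. Each stimulated sample lay below each unstimulated sample, and the stimulated groups overlapped. Rab27a fell by 0.55 on the log2 scale in YFP- samples (SE 0.16; limma adjusted p = 0.0097) and by 0.86 in YFP+ samples (SE 0.16; limma adjusted p = 3.2e-04). Unc13d codes for Munc13-4, the priming factor that Rab27a recruits. It averaged 37.1 ± 4.39 CPM without stimulation, 29.1 ± 5.40 for YFP- and 30.9 ± 3.95 for YFP+ samples (SD, n = 4), with overlapping ranges. Its log2 fold changes of -0.36 (limma adjusted p = 0.067) and -0.27 (limma adjusted p = 0.15) were not called. Under every other scaling tried the YFP- value was called, from -0.38 (adjusted p = 0.047) to -0.58 (adjusted p = 0.0029). The YFP+ value was called with ribosomal-RNA-like reads left out (-0.46, adjusted p = 0.012) and under no other scaling.

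The granule membrane genes were Nkg7 and Lamp1. Lamp1 codes for CD107a, the lysosomal membrane protein whose appearance on the cell surface is used to measure degranulation, and it is the RNA and not the surface protein that was measured. It was at 26.7 to 30.2 CPM without stimulation, at 17.7 to 23.9 CPM for YFP- and at 17.2 to 23.1 CPM for YFP+ samples, so that both stimulated groups lay below the unstimulated one. Lamp1 fell by 0.37 on the log2 scale in YFP- samples (limma adjusted p = 0.04) and by 0.41 in YFP+ samples (limma adjusted p = 0.021). Neither call was firm: the first was lost without any 1 of 6 samples (adjusted p up to 0.13 without YFP- m4), and the second under every rescaling but the removal of ribosomal-RNA-like reads (-0.28 to -0.38, adjusted p from 0.056 to 0.14) and without unstimulated m4 or YFP+ f2. After quantile normalization the first was -0.56.

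**Figure D2:**
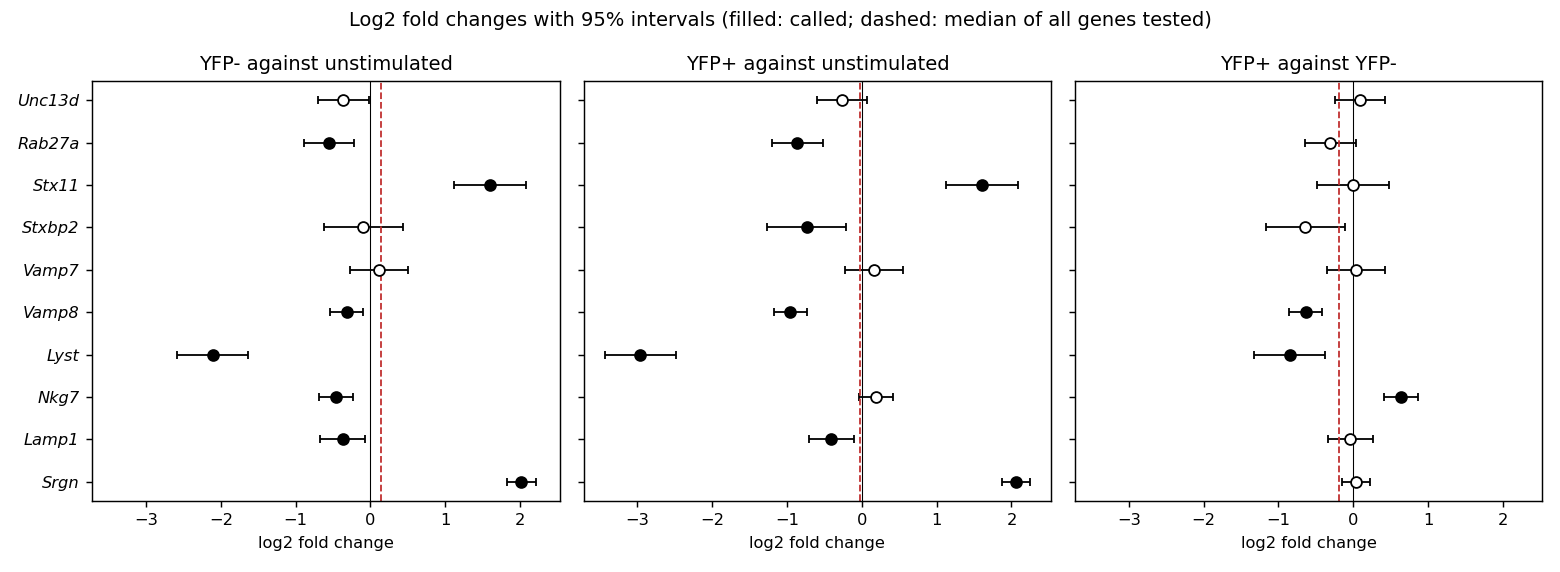
Log2 fold change (horizontal axis) of the 10 degranulation genes in the 3 comparisons, with 95% intervals from limma; filled circles passed an adjusted p of 0.05 over all genes, and the dashed line is the median of all genes tested. Srgn, Stx11 and Lyst stood farthest from 0 in both comparisons with unstimulated cells, and in YFP+ against YFP- samples Nkg7 lay above 0 and Vamp8 and Lyst below it.

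The second question was how stimulated cells that had switched on the interferon gamma reporter differed from those that had not. Of the 10 genes 1 was called higher in YFP+ samples (3.28% of all genes) and 2 were called lower (18.5% of all genes), and for these 3 the groups did not overlap (22.1% of all genes). The median log2 fold change of the 10 genes was -0.02, where that of all genes was -0.19. This shift of all genes depended on the scaling: it was -0.04 with trimmed-mean factors and 0.07 after centring each sample on its median, and the calls over all genes moved from 405 higher and 2286 lower to 1016 and 1675, or to 1505 and 1491.

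Nkg7, a small membrane protein of cytotoxic granules needed for their release, was the one gene higher in YFP+ samples. It was at 2262, 2672, 2412 and 2714 CPM in unstimulated samples. YFP- samples held 1971, 1820, 1567 and 1983 CPM. YFP+ samples held 2620, 2783, 2825 and 3228 CPM. The YFP- samples lay below all others, and the unstimulated and YFP+ ranges overlapped. Nkg7 was 0.64 higher in YFP+ than in YFP- samples on the log2 scale (SE 0.11; limma adjusted p = 7.9e-04), or 1.56-fold, and 3.01% of all genes had a higher value. It fell by 0.46 in YFP- samples against unstimulated cells (SE 0.11; limma adjusted p = 0.0027), and by 0.70 after quantile normalization. With no filter on low values neither difference was called (adjusted p = 0.078 and 0.15). Against unstimulated cells the YFP+ value of 0.19 was not called (limma adjusted p = 0.14). That last value depended on the scaling: it was 0.32 (adjusted p = 0.01) with trimmed-mean factors over all features, and -0.02 after quantile normalization. It was also called after centring and with voom weights, and not with trimmed-mean factors over the genes kept.

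Vamp8 and Lyst were lower in YFP+ than in YFP- samples. The log2 difference of Vamp8 was -0.64 (SE 0.10, limma adjusted p = 7.4e-04), and 22.0% of all genes had a lower value. It was smaller but called after centring (-0.37, adjusted p = 0.03). The log2 difference of Lyst was -0.85 (SE 0.22, limma adjusted p = 0.014), and 14.7% of all genes had a lower value. The Lyst call was lost after quantile normalization (-0.48, adjusted p = 0.13), after centring (-0.59, adjusted p = 0.065), with voom weights (-0.71, adjusted p = 0.054) and with no filter (adjusted p = 0.08). Stxbp2 had the same size of difference as Vamp8, -0.64, but with an SE of 0.25 it was not called (limma adjusted p = 0.08). It was called after leaving ribosomal-RNA-like reads out of the totals (-0.65, adjusted p = 0.024) and after quantile normalization (-0.57, adjusted p = 0.033). Stxbp2 was also called without the YFP+ sample f2 (-0.82, limma adjusted p = 0.022) or m2 (-0.79, limma adjusted p = 0.039). Without the YFP+ sample m3 the value was -0.37 (limma adjusted p = 0.18). Rab27a was at -0.31 (95% interval -0.65 to 0.03; limma adjusted p = 0.19). The values of Unc13d, Stx11, Vamp7, Lamp1 and Srgn lay between -0.04 and 0.09, and none was called.

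The order of the 10 genes was compared per length, as CPM divided by kilobases of exon. Nkg7 was first in every group, at 2752 ± 235 CPM per kb without stimulation, 2008 ± 212 for YFP- and 3133 ± 283 for YFP+ samples (SD, n = 4). Srgn was the next in every group and moved closer, from 280 ± 18.5 to 1135 ± 84.3 and 1165 ± 42.6 CPM per kb. Vamp8 and Stxbp2 followed, apart from each other in unstimulated and YFP- samples and overlapping in YFP+ samples. Stx11 moved from rank 9 in unstimulated samples, at 4.11 ± 0.684 CPM per kb, to rank 5 in both stimulated groups, at 12.4 ± 1.55 and 12.9 ± 4.39. In YFP- samples it was separate from the genes below, and in YFP+ samples its range overlapped that of Stxbp2 above and Lamp1 below. Among Lamp1, Rab27a, Unc13d and Vamp7, neighbours in the order overlapped in every group. Lyst was last everywhere, at 0.953 ± 0.165, 0.223 ± 0.0537 and 0.123 ± 0.0257 CPM per kb.

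**Figure D3:**
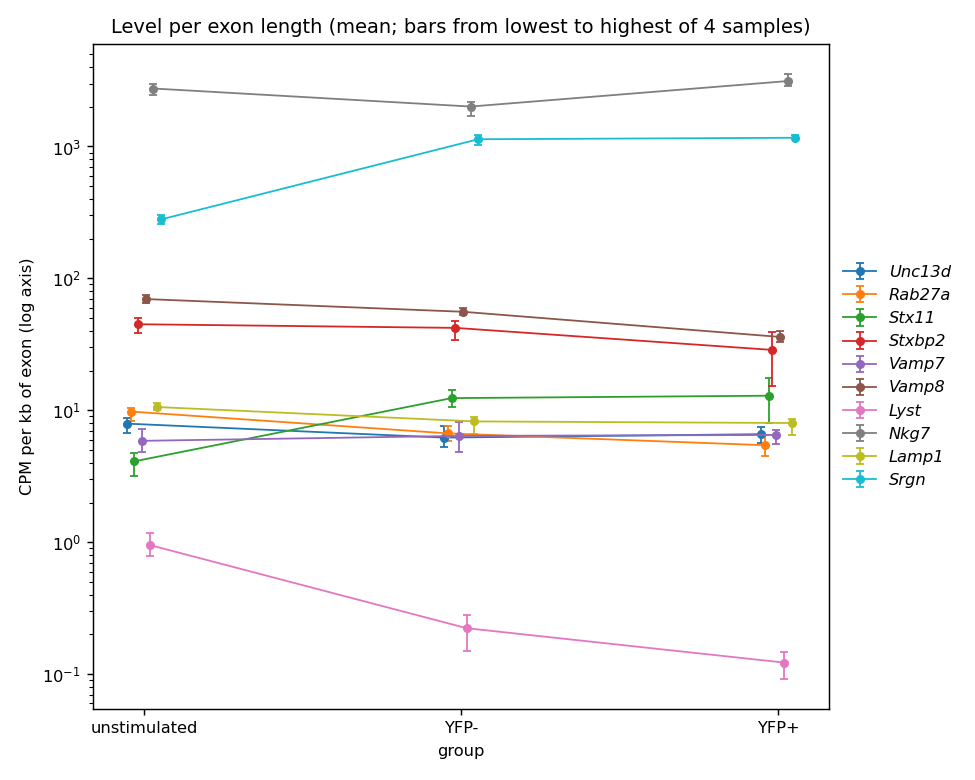
Mean level of each degranulation gene per kilobase of exon (vertical log axis, CPM per kb) in the 3 groups; bars run from the lowest to the highest of 4 samples. Srgn and Stx11 stood higher in both stimulated groups than without stimulation, and Lyst lay lowest throughout.

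The genes whose profiles over the 12 samples were most like those of the members that moved most were sought among 8117 genes, by the root mean square (RMS) difference of log2 CPM after centring each profile on its own mean. For Srgn these were Rbpj (RMS difference 0.118), Glipr1 (0.120) and Polr1b (0.132). Glipr1, for example, went from a mean of 67.7 CPM without stimulation to 281 CPM for YFP- and 262 CPM for YFP+ samples. For Stx11 they were Thop1 (0.145), Entr1 (0.146) and Rpl7l1 (0.152). For Lyst they were Tanc1 (0.243), Atp2b4 (0.279) and Pafah1b3 (0.282), and Tanc1 went from 16.2 to 3.39 and 1.72 CPM.

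The members were then set beside 4 lists of related genes. Of 34 partners in tethering, docking and SNARE fusion, 13 rose and 8 fell in YFP- against unstimulated samples, 9 rose and 12 fell in YFP+ against unstimulated samples, and 0 rose and 7 fell in YFP+ against YFP- samples. As shares these were 38.2% and 23.5% (30.2% and 20.9% of all genes), 26.5% and 35.3% (27.5% and 33.3%), and 0% and 20.6% (3.28% and 18.5%). The last pair of counts became 1 and 4 under trimmed-mean scaling, and 4 and 4 after centring. Over all 12364 genes, 1016 were called higher and 1675 lower under trimmed-mean scaling, and 1505 and 1491 after centring. The first pair, 13 and 8, became 10 and 11 with ribosomal-RNA-like reads left out of the totals, and 11 and 12 after quantile normalization. The second pair, 9 and 12, became 7 and 16, and 11 and 14, in the same order. Calls over all genes under both of these scalings are given with the first question. Rab27b, the close relative of Rab27a, went from a mean of 11.1 CPM to 1.49 CPM in YFP- and 0.791 CPM in YFP+ samples (the order of means used from here on), a log2 change of -2.98 (limma adjusted p = 5.8e-06) in YFP- samples. Stx6, a syntaxin of the trans-Golgi network, rose from 17.4 to 95.1 and 87.3 CPM. Sytl2, a Rab27 effector that docks granules, went from 46.3 to 30.1 and 12.0 CPM, and its difference between YFP+ and YFP- samples was -1.32 (limma adjusted p = 5.7e-05). Rab37, a GTPase of secretory granules, was 2.21 lower in log2 in YFP+ than in YFP- samples, or 5.69 against 26.2 CPM.

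Of 33 genes of granule biogenesis and sorting, the list nearest to Lyst, 10 rose and 6 fell in YFP- samples against unstimulated cells, 9 rose and 9 fell in YFP+ samples, and 0 were higher and 6 lower in YFP+ than in YFP- samples. These shares, 30.3% and 18.2%, 27.3% and 27.3%, and 0% and 18.2%, lay near those of all genes. The last pair of counts was 2 and 3 after trimmed-mean scaling and 4 and 2 after centring, beside the calls over all genes given above for these scalings. Of the other 4 BEACH-domain genes of the list that passed the filter, 3 fell in both comparisons with unstimulated cells: Nbeal2 went from 68.4 to 21.5 and 15.1 CPM, Nsmaf from 51.0 to 21.6 and 13.0 CPM, and Lrba from 6.47 to 2.95 and 2.06 CPM. In YFP- samples their log2 changes were -1.69, -1.25 and -1.13, with limma adjusted p-values of 1.4e-06, 4.5e-05 and 4.3e-04. Nbeal1 was not called, at 0.64 in YFP- and 0.21 in YFP+ samples. M6pr, a receptor that sorts enzymes to lysosomes, rose from 106 to 262 and 266 CPM.

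Of 21 genes of granule cargo and granule membrane, 10 rose and 4 fell in YFP- samples against unstimulated cells, 9 rose and 7 fell in YFP+ samples, and 2 were higher and 6 lower in YFP+ than in YFP- samples. These were 47.6% and 19.0% of the list (30.2% and 20.9% of all genes), 42.9% and 33.3% (27.5% and 33.3%), and 9.52% and 28.6% (3.28% and 18.5%). The last pair of counts became 3 and 4 under trimmed-mean scaling and 6 and 4 after centring, beside the calls over all genes given above for these scalings. Cd63, a tetraspanin of the granule membrane like Lamp1 in its use as a surface marker, rose from 12.0 to 162 and 215 CPM. The fall of Lamp1 was smaller, and neither of its calls was firm, as given above. Some granzyme genes are close to each other in sequence, so the split of reads between those may be uncertain, which was not tested. Gzmb stood at 6165, 12849 and 24088 CPM and Gzma at 8603, 4483 and 4412 CPM. The last list holds genes for the assembly of glycosaminoglycans, the class of sugar chains that serglycin carries. Which of their products act on serglycin in these cells was not tested. Of its 22 genes, 5 rose and 6 fell in YFP- samples against unstimulated cells, 6 rose and 10 fell in YFP+ samples, and 3 were higher and 4 lower in YFP+ than in YFP- samples. The shares were 22.7% and 27.3%, 27.3% and 45.5%, and 13.6% and 18.2%, beside the same shares of all genes as above. In YFP+ against YFP- samples the counts became 4 higher and 1 lower under trimmed-mean scaling, and 6 and 1 after centring. Xylt2, which attaches the first sugar to the core protein, went from 12.2 to 5.20 and 3.45 CPM while Srgn rose, and Chst11, a chondroitin sulfotransferase, went from 16.5 to 29.4 and 44.7 CPM.

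**Figure D4:**
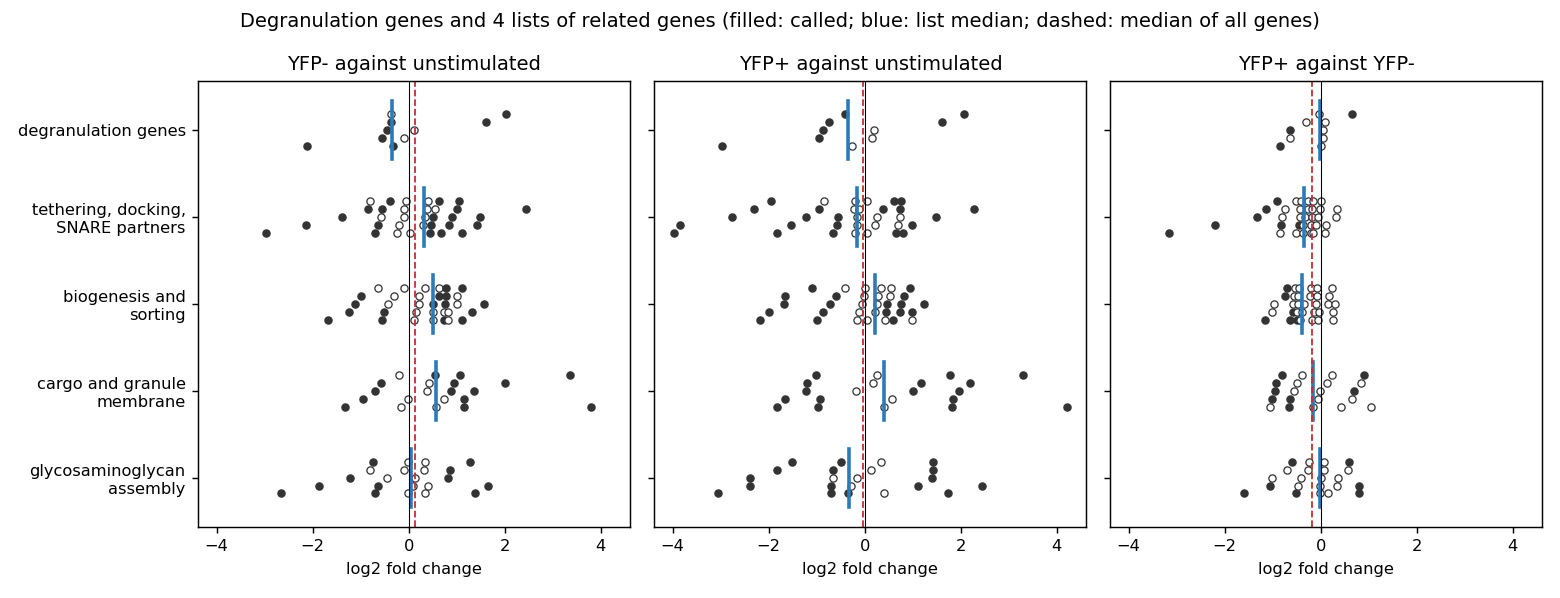
Log2 fold change (horizontal axis) of the degranulation genes and of 4 lists of related genes (rows) in the 3 comparisons; each circle is 1 gene, filled where called, with the list median in blue and the median of all genes dashed. In YFP+ against YFP- samples 0 of 34 and 0 of 33 genes of the tethering and biogenesis lists were called higher on the deposited scale. On that scale 405 of all 12364 genes (3.28%) were called higher. After centring, 4 and 4 of the lists and 1505 of all 12364 genes were called higher.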

How the data were processed

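Per the labels' protocols, the SMARTer Ultra Low kit (10 ng of RNA per sample) gave the cDNA, and a NovaSeq read both ends of the fragments. The submitters' processing notes name STAR 2.7.9a, Subread, featureCounts 2.0.3 and bcl2fastq, and the build GRCm38. The 12 samples were deposited as moderated log2 CPM in a single table, per the file headers. Repeated lines (287) were dropped. Whole reads and totals followed from the values for 100% of them (within 0.1 reads), with a prior of 0.5 reads. There were 0 per-sample columns of no sample. Limma 3.58.1 (R 4.3.3) was fitted to the deposited log2 values of genes above 0 in at least 4 samples, with 1 coefficient per group over all 12 samples and eBayes with a trend on intensity. Calls were made at an adjusted p (Benjamini-Hochberg over all kept genes) under 0.05. The fit was tested on simulated data. Positions and exon lengths came from GENCODE M21, which held 99.5% of the identifiers. Tables and figures were made in Python 3.11.15 with matplotlib 3.10.9, numpy 2.4.6 and pandas 2.3.3.

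The members, lists and tests were chosen with earlier results of these data known. Named were the 10 members, at most the 3 largest rises and falls called per list and comparison, and the 3 genes most like each member whose group means spanned over 1 log2. Alternatives were the replicate block, only the 8 samples compared, other filters, a pseudocount of 1 CPM, trimmed-mean, quantile and median scaling, 359 rRNA-like features left out of the totals, voom weights, no trend, a threshold of 0.01 on the adjusted p, and each sample left out in turn. The rRNA-like list was extended by a few features after the data had been seen. Trimmed-mean factors were first computed over all features. A version over the genes kept was added after its results, and an earlier account's counts, had been seen, and both are given. Counting floors cover counting error only, since no molecular identifiers are named.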

Additional observations from a re-analysis of the deposited data

Results flagged for a closer look

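In 30 sets of 4 samples (10 genes in 3 groups), 3 held a sample whose gap to the nearest other, as a share of the range of the set, was above 0.829, and chance gives about 1.5 such sets. Rab27a in the unstimulated sample m4 was at 32.0 CPM, with the others at 39.0 to 40.5 CPM (gap share 0.844 on the log2 scale). Lamp1 in the YFP- sample m4 was at 4.15 log2 CPM against 4.53 to 4.58 (0.884). Lamp1 in the YFP+ sample f2 was at 4.11 against 4.49 to 4.53 (0.911). Without that YFP+ sample the Lamp1 change against unstimulated cells was -0.31 (limma adjusted p = 0.063), and without the YFP- sample m4 it was -0.27 in the other comparison (limma adjusted p = 0.13).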

How the results depend on the processing

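Of 30 gene results, 13 kept their direction and their side of the threshold in all 21 alternatives. Of 630 values, 561 did so, 28 lost a call, 17 gained one and 24 changed sign. With no filter on low values, 1 gene was called in YFP+ against YFP- samples (3 with the filter), and the cause was not tested. Leaving out 1 sample gave 3 to 4 calls in that comparison, and 6 to 7 in each comparison with unstimulated cells. Sample labels do not pair the samples by the rule used (correlations of same-label deviations ran from -0.06 to 0.38, and in YFP+ against YFP- samples were 0.05, 0.35, 0.37 and 0.17 for f2, m2, m3 and m4). With the replicate label as a block, 4, 6 and 7 genes were called (YFP+ against YFP-, YFP- against unstimulated, YFP+ against unstimulated). The block added Stxbp2 in the first (-0.64, limma adjusted p = 0.025) and dropped Lamp1 in the second.

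Values that changed sign were small and not called. In YFP+ against YFP- samples Lamp1 was at 0.11 with trimmed-mean scaling and with voom weights, 0.15 with factors over the genes kept, 0.18 after quantile normalization and 0.22 after centring. Srgn was at -0.01 after quantile normalization and Stx11 at -0.01 without rRNA-like reads. In YFP- against unstimulated samples Vamp7 was at -0.02 after quantile normalization and centring and -0.07 without rRNA-like reads. In YFP+ against unstimulated samples Vamp7 was at -0.03 and Nkg7 at -0.003 without rRNA-like reads, and Nkg7 at -0.02 after quantile normalization. Nkg7 there was called with trimmed-mean factors over all features (0.32, adjusted p = 0.01), but not with factors over the genes kept. It was also called after centring and with voom weights. Leaving out 1 sample gave ranges in YFP+ against YFP- of -0.17 to 0.21 for Stx11, -0.08 to 0.17 for Vamp7, -0.14 to 0.06 for Lamp1 and -0.01 to 0.08 for Srgn, and of -0.01 to 0.24 for Vamp7 in YFP- against unstimulated samples. The cause was not tested. Depth limits Lyst most, with 52 reads at its lowest.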
